A study of Mus musculus with 25 samples.

Results

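The genes described here are 10 chemokine genes that were listed by name, Ccl2, Ccl5, Ccl7, Cxcl1, Cxcl2, Cxcl5, Cxcl10, Cxcl12, Cxcl16 and Cx3cl1, out of 55385 genes in the deposited tables. Their RNA was measured by bulk RNA-seq in 25 libraries from cultured mouse melanoma cells, 5 biological replicates of each of 5 lines. The study injected these lines to compare how efficiently they colonize the liver, and it grouped WT31, B16F10 luc2 and RET as high and intermediate metastatic (HIM) melanoma and D4M and HCmel12 as low metastatic (LM) melanoma. All cells were untreated and sub-confluent (50%) when RNA was taken, so the values describe tumour cells in a dish and not metastases.

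WT31 cells came from Tyr::NrasQ61K/°; INK4a-/- mice, D4M cells from Tyr::CreER;BrafCA;Ptenlox/lox mice, in which the tyrosinase promoter drives the Cre, and HCmel12 cells from a primary melanoma of an HGF-CDK4(R24C) mouse. RET cells came from MT/RET transgenic mice, in which the metallothionein promoter drives RET, and B16F10 luc2 is a purchased B16F10 line that carries luciferase. Each group is 1 established line, so that driver, origin and line cannot be told apart. WT31, RET and B16F10 luc2 grew in RPMI with 10% fetal calf serum (FCS), HCmel12 in RPMI with 10% FCS, β-mercaptoethanol and further supplements, and D4M in Advanced DMEM/F-12 with 5% FCS, so that medium and line cannot be told apart in comparisons with D4M or HCmel12. The labels name biological replicates without stating separate thaws, and p-values measure the spread between these libraries.

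Chemokines are small secreted or shed proteins that direct the migration of leukocytes by binding G protein-coupled receptors. Inflammatory chemokines are induced through NF-κB and interferon signalling, whereas homeostatic ones such as Cxcl12 are made constitutively by stromal cells. Melanoma cells are known to make several of them, and the set they make differs between tumours.

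Library totals lay between 24199083 and 25843286 estimated counts. The floor for a gene that was not counted was set at 3 counts in every library, which at these totals is 0.116 to 0.124 CPM before TMM scaling. Floors cover counting error only. Levels are given as CPM (counts in 1000000) after TMM scaling, as mean ± SD over 5 libraries. Levels of different genes are compared as TPM (transcripts in 1000000), which take length into account. Marker lists are an exception, since they are summed in CPM, where longer genes weigh more. D4M TPM values rest on 4 libraries. Differences were tested with limma on voom-weighted counts with Benjamini-Hochberg adjustment over 15247 genes, and log2 differences are given for the first line named minus the second.

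The labelled cell type was checked against melanocyte markers (Mitf, Sox10, Pmel, Mlana, Tyr, Tyrp1 and Dct). Their summed level was 12026 to 30205 CPM in the 20 libraries of WT31, B16F10 luc2, RET and HCmel12, but 6.54 to 12.1 CPM in 4 D4M libraries and 59.6 CPM in D4M replicate 1, so the defining markers of melanocytes were nearly absent from D4M. Fibroblast markers summed to 714 to 1395 CPM in D4M and to 1.43 to 102 CPM elsewhere, carried by Col3a1, Col1a2 and Col1a1. All 6 tested of 10 fibroblast markers, with Pdgfrb at 47.4 CPM, were higher in D4M than in each other line, as were 20% of all tested genes, but Col3a1 and Fap passed the filter on low counts only through D4M and had to differ there. Lum had at most 1 count in any library. Macrophage markers summed to 8.42 to 22.9 CPM in D4M and 4.03 to 12.5 CPM elsewhere. Of 4 tested macrophage markers, Cd14 and Cd68 were higher in D4M (4.61 and 8.01 CPM) than in each other line. Cd68 ranged from 3.15 to 15.9 CPM over the D4M libraries, and D4M replicates 4 and 5 (3.78 and 3.15 CPM) overlapped with other lines. Lyz2 was instead highest in WT31 (8.13 CPM), with at most 1 count in D4M, and Mrc1 was highest in HCmel12 (2.29 CPM). Of those not tested, Csf1r had 9.4 to 16.1 counts in D4M and at most 6.1 in any other library. Adgre1, Fcgr1 and Aif1 had at most 1 count in any library, Ptprc at most 3 and Itgam at most 4. Lymphocyte markers summed to at most 6.47 CPM in any library, with Lck highest in HCmel12 at 3.94 CPM. Endothelial markers summed to 64.0 to 76.0 CPM in HCmel12, from Kdr and Egfl7, and to at most 13.4 CPM elsewhere, while Vwf and Pecam1 were at no more than 1.5 CPM on average in any line. D4M replicate 1 and HCmel12 replicate 4, which is described with Cxcl10, stood apart. Counts of members called were the same without both, with 1 exception, B16F10 luc2 against D4M, which rose from 5 to 6 because Cxcl10 was also called.

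Promoter sequences are shown for 4 members whose levels the results turn on: Cx3cl1 and Cxcl12, which were high in D4M, Cxcl10, which was not, and Cxcl1, which was barely counted. RefSeq promoters (GRCm38.p6, 250 bases before to 50 after the start, printed on the strand of the gene) matched 5 of 10 members, the fifth being Cxcl2. They lie at chr8:94771930-94772229 on the + strand for Cx3cl1, chr6:117168285-117168584 on the + strand for Cxcl12, chr5:92348840-92349139 on the - strand for Cxcl10 and chr5:90890995-90891294 on the + strand for Cxcl1. Capitals mark matches to the NF-κB consensus, to the interferon-type motif GAAANNGAA, to the AP-1 motif TGANTCA and to TATAAA, each searched on both strands, where overlapping matches merge.
Cx3cl1: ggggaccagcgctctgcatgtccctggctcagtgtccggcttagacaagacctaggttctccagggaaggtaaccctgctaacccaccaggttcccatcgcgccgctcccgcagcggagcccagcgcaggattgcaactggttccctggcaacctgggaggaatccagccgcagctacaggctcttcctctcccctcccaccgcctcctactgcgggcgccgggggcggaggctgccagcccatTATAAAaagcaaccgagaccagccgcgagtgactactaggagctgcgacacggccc
Cxcl12: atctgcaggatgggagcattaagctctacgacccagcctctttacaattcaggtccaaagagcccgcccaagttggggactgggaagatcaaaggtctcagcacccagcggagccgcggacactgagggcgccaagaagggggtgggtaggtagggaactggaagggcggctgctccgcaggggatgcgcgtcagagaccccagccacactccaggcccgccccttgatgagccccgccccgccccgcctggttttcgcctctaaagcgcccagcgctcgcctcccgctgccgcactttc
Cxcl10: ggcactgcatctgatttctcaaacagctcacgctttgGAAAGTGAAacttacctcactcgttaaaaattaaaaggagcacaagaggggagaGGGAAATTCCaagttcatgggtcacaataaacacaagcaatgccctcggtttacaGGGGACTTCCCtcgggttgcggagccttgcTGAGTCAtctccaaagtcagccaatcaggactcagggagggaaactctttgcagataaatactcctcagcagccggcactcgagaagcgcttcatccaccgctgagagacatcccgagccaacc
Cxcl1: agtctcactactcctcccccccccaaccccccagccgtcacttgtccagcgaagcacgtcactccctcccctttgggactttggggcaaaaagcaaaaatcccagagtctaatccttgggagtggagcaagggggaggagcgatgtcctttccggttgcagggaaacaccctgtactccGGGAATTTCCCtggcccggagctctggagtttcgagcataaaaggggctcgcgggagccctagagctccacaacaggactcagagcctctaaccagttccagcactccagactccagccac

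The Cxcl10 promoter held 1 GAAANNGAA match at positions -213 to -205 relative to the start, an NF-κB match at -159 to -150, a pair of overlapping NF-κB matches at -104 to -94 and 1 TGANTCA match at -74 to -68. Cxcl1 held the NF-κB consensus on both strands at -71 to -61, and Cxcl2 held it at -97 to -87. Cx3cl1 held TATAAA at -6 to -1, and Cxcl12 held none of the 4 motifs in this window. Of 32851 promoters of the same length, 8.46% held the NF-κB consensus, 8.56% GAAANNGAA, 7.81% TGANTCA and 13.6% TATAAA. A match describes letters and not a bound site.

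Of the 10 members, 6 passed the filter on low counts, Ccl2, Ccl5, Ccl7, Cxcl10, Cxcl12 and Cx3cl1. Cxcl1, Cxcl2, Cxcl5 and Cxcl16 did not pass and were not tested. Ccl2, Ccl7 and Cxcl12 passed only through D4M, so these 3 had to differ between D4M and other lines, and counts over the tested members are a description. The plot of all members by library shows a D4M column that stands alone for 4 genes and a different order for Cxcl10.

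**Figure D1:**
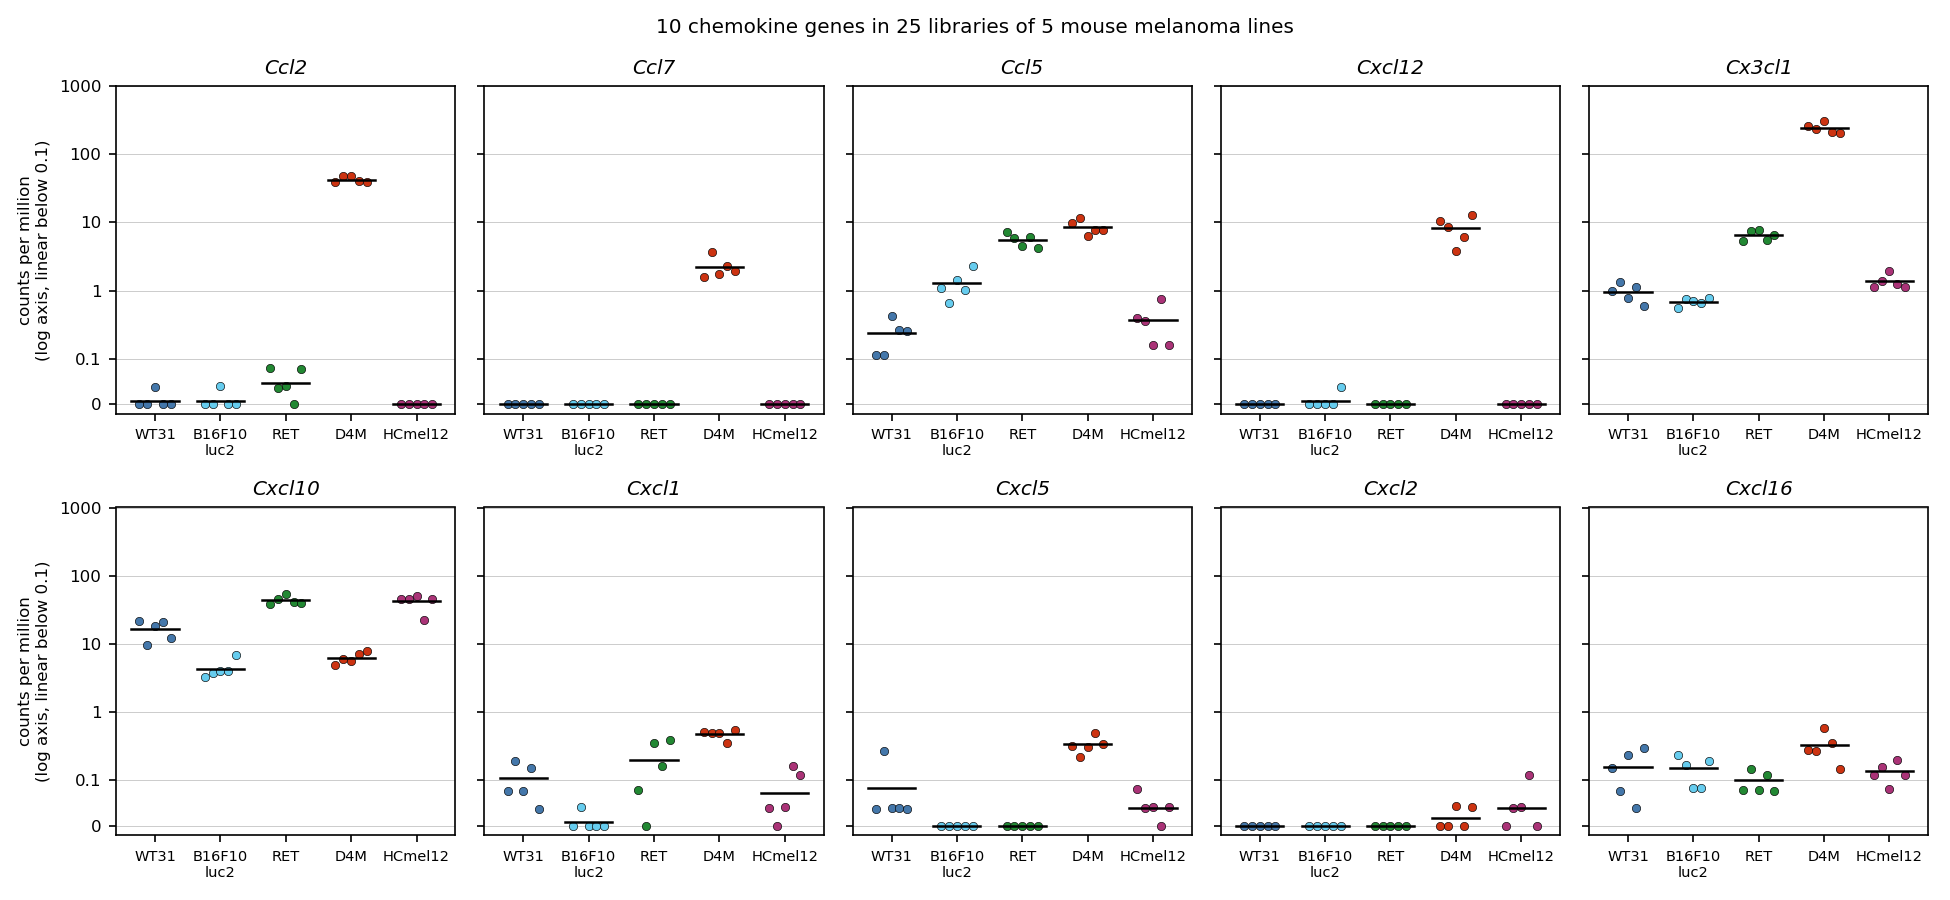
CPM (vertical axis, logarithmic above 0.1 and linear below) of 10 chemokine genes in 25 libraries, with 1 point per library and a bar at the mean of 5. Ccl2, Ccl7, Cxcl12 and Cx3cl1 lie highest in D4M with no overlap with any other line, Cxcl10 lies highest in RET and HCmel12, and Cxcl2 and Cxcl16 lie below 1 CPM everywhere.

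Ccl2 and Ccl7 attract monocytes through the receptor Ccr2. Ccl2 (ENSMUSG00000035385.5, chr11:82035571-82037453, + strand, GRCm38) had 851, 1063, 1064, 915 and 906 counts in D4M replicates 1 to 5. It had 0 to 2 counts in RET, 0 or 1 in WT31 and B16F10 luc2 and 0 in all 5 HCmel12 libraries. All D4M libraries were thus far above every other library. At 42.6 ± 4.37 CPM (SD, n = 5), D4M was at least 366-fold higher than WT31, 342-fold higher than B16F10 luc2, 355-fold higher than RET and 349-fold higher than HCmel12, against a floor of 3 counts per library. In limma with Benjamini-Hochberg adjustment, Ccl2 also passed between RET and HCmel12 (adjusted p = 0.0116) and between WT31 and RET (adjusted p = 0.0281), but with at most 2 counts per library on either side these are differences below the floor and no fold is given.

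Ccl7 (ENSMUSG00000035373.2, chr11:82045712-82047525, + strand), which lies 8258 bases downstream of Ccl2, had 35, 83, 39, 51 and 46 counts in D4M. It had 0 counts in each of the 20 other libraries. Its level in D4M was 2.25 ± 0.841 CPM (SD, n = 5), at least 18.1-fold to 19.3-fold above the other lines. In TPM, D4M held 89.9 of Ccl2 and 5.10 of Ccl7. The next gene of the cluster, Ccl11, which attracts eosinophils, reached 9 counts in D4M and 0 elsewhere, and Ccl12, Ccl8 and Ccl1 had no count in any library. Gm17268, annotated across Ccl2 on the other strand, had 0 counts everywhere.

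Ccl5 recruits T cells and monocytes, and Ccr1 is one of its receptors. Ccl5 (ENSMUSG00000035042.2, chr11:83525778-83530518, - strand) had 211, 262, 141, 177 and 185 counts in D4M and 185, 157, 113, 154 and 108 in RET. It had 28, 16, 35, 25 and 60 counts in B16F10 luc2, 10, 9, 4, 19 and 4 in HCmel12 and 3, 3, 11, 7 and 7 in WT31. D4M and RET overlapped, as did HCmel12 and WT31, while B16F10 luc2 lay between them and overlapped HCmel12 by its lowest library. The means were 8.67 ± 2.06, 5.59 ± 1.29, 1.31 ± 0.622, 0.370 ± 0.248 and 0.237 ± 0.130 CPM (SD, n = 5) in D4M, RET, B16F10 luc2, HCmel12 and WT31, respectively.

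The levels of Ccl5 thus spread over the lines in steps. RET was lower than D4M by limma (log2 difference -0.63 ± 0.195 SE, adjusted p = 0.00484), but the call was lost on log2(TPM + 1) (adjusted p = 0.158), on log2(TPM + 0.1) (0.303) and with a log2 limit of 1 (adjusted p = 1). RET exceeded B16F10 luc2 4.26-fold (log2 difference of B16F10 luc2 minus RET -2.15, adjusted p = 8.62e-07), and B16F10 luc2 exceeded HCmel12 3.54-fold (log2 difference 1.88, adjusted p = 0.000585). WT31 and HCmel12, the neighbours at the low end, did not pass (log2 difference -0.55, 95% interval -1.67 to 0.57, adjusted p = 0.375). Of the chemokine genes nearby on chromosome 11, Ccl9 reached 44 counts in D4M and at most 9 elsewhere, Ccl4 at most 6 and Ccl6 at most 5, and Ccl3 had no count.

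Cxcl12 retains and attracts cells that carry Cxcr4, and it also binds the scavenger receptor Ackr3. Cxcl12 (ENSMUSG00000061353.11, chr6:117168535-117181367, + strand) had 225, 193, 86, 140 and 304 counts in D4M. A single count was found outside D4M, in B16F10 luc2 replicate 5. Within D4M the highest library was D4M replicate 5 and the lowest D4M replicate 3, and the mean was 8.38 ± 3.54 CPM (SD, n = 5). D4M was at least 67.4-fold to 72.0-fold higher than the other lines.

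Cx3cl1, also called fractalkine, is made as a transmembrane protein with a chemokine domain on a stalk, and it attracts cells that carry Cx3cr1. Cx3cl1 (ENSMUSG00000031778.13, chr8:94772009-94782427, + strand) had 5694, 5236, 6797, 4824 and 4843 counts in D4M and 134, 200, 198, 140 and 169 in RET. It had 28, 35, 48, 31 and 28 counts in HCmel12, 26, 35, 20, 29 and 16 in WT31 and 14, 18, 17, 16 and 20 in B16F10 luc2. The lowest D4M library thus exceeded the highest library of any other line, and RET in turn exceeded HCmel12, WT31 and B16F10 luc2 without overlap.

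Mean Cx3cl1 levels were 244 ± 39.3 CPM in D4M, 6.53 ± 1.10 in RET, 1.37 ± 0.339 in HCmel12, 0.960 ± 0.288 in WT31 and 0.686 ± 0.0843 in B16F10 luc2 (SD, n = 5). D4M was 37.3-fold above RET, 178-fold above HCmel12, 254-fold above WT31 and 355-fold above B16F10 luc2, and each of these 4 differences passed (limma, adjusted p between 6.14e-22 and 7.80e-20). RET exceeded HCmel12 4.76-fold (log2 difference 2.25 ± 0.245 SE, adjusted p = 8.32e-09). At the low end, B16F10 luc2 was below HCmel12 (log2 difference -0.96, adjusted p = 0.0151), a call that was lost under 3 alternatives, without a filter (adjusted p = 0.101), on log2(TPM + 1) (-0.27, adjusted p = 0.0519) and with a log2 limit of 1 (adjusted p = 1). WT31 did not pass against HCmel12 (log2 difference -0.53, 95% interval -1.19 to 0.13, adjusted p = 0.141) in this fit but did in edgeR (adjusted p = 0.0418), in DESeq2 (0.0168) and with the replicate number as a block (0.0164). WT31 and B16F10 luc2 did not pass either (0.42, 95% interval -0.31 to 1.15, adjusted p = 0.291). Ccl22, the neighbouring chemokine gene upstream, had no count in any library, and Ccl17, downstream, had at most 2.

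Ccl2, Ccl5, Ccl7, Cxcl12 and Cx3cl1, 5 of the 6 tested members, were higher in D4M than in each of the other 4 lines, beside 20% of all tested genes. Ccl2, Ccl7 and Cxcl12 passed the filter only through D4M and had to differ there, so this count is a description. The call of Ccl5 between RET and D4M was lost under 3 alternatives. D4M was also the line with the raised fibroblast markers and the nearly absent melanocyte markers described above. Of the macrophage markers, Cd14 and Cd68 were raised there, whereas Lyz2 had at most 1 count and Mrc1 was highest in HCmel12. The part of these markers in the chemokine levels was not tested. In bulk RNA, fewer cells of a kind and less RNA per cell cannot be told apart.

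Cxcl10 attracts activated T cells and natural killer cells through Cxcr3 and is a well-known interferon target. Cxcl10 (ENSMUSG00000034855.13, chr5:92346638-92348889, - strand) had 972, 1229, 1366, 1017 and 1042 counts in RET and 1131, 1155, 1253, 558 and 1120 in HCmel12. It had 573, 257, 477, 538 and 329 counts in WT31, 106, 135, 126, 158 and 188 in D4M and 82, 91, 97, 96 and 177 in B16F10 luc2. The levels of RET lay above all WT31, D4M and B16F10 luc2 libraries. HCmel12 replicate 4 lay within the range of WT31 in counts, but at 22.5 CPM it lay just above the highest WT31 library at 21.7 CPM. D4M and B16F10 luc2 overlapped. No library of any line was without Cxcl10 counts.

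The Cxcl10 means were 43.8 ± 6.23 CPM in RET, 42.1 ± 11.1 in HCmel12, 16.6 ± 5.33 in WT31, 6.30 ± 1.23 in D4M and 4.36 ± 1.40 in B16F10 luc2 (SD, n = 5). RET and HCmel12 did not pass against each other (log2 difference 0.10, 95% interval -0.26 to 0.46, adjusted p = 0.631). WT31 was lower than HCmel12 (log2 difference -1.36 ± 0.205 SE, adjusted p = 1.70e-06) and lower than RET (-1.46, adjusted p = 4.35e-07), and it was higher than D4M (1.34 ± 0.296 SE, adjusted p = 0.000223) and than B16F10 luc2 (1.90, adjusted p = 8.32e-06). D4M, with the highest Ccl2 and Cx3cl1, was 6.95-fold below RET and 6.67-fold below HCmel12. B16F10 luc2 and D4M did not pass (log2 difference -0.56, 95% interval -1.32 to 0.21, adjusted p = 0.174) in this fit but did in DESeq2 (adjusted p = 0.0168) and when only these 2 lines were fitted (0.0152).

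Cxcl10 lies inside Art3, a gene for an ADP-ribosyltransferase family member on the opposite strand (chr5:92331827-92414628), and 133 of its 2252 exonic bases (5.91%) are also exonic in Art3. Art3 was chosen after its values were seen. It had 1094 to 1857 counts in RET, 1434 to 1641 in HCmel12, 534 to 1251 in WT31, 27 to 40 in D4M and 7 to 13 in B16F10 luc2, which puts the lines high in Cxcl10 and those low in it on the same sides. Strand was not stated for the libraries, so that reads of the 2 genes where they overlap cannot be told apart. In HCmel12 replicate 4, Cxcl10 was at 558 counts against 1120 to 1253 in the other libraries of that line, and Art3 was at 1641 counts. The part of Art3 in the Cxcl10 counts was not tested.

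Cxcl11 and Cxcl9 share the receptor Cxcr3 with Cxcl10 and are its neighbours on chromosome 5. Cxcl11 was high only in HCmel12, with 442 to 556 counts (20.3 ± 2.11 CPM, SD, n = 5). Its mean there was 112-fold above WT31 and 154-fold above RET. Cxcl11 passed the filter on low counts only through HCmel12 and had to differ there, so no p-value is given. The annotation lists this gene as a polymorphic pseudogene, 41.7% of its exonic bases are also exonic in the processed pseudogene Gm2673, and 42.2% of its 31-base sequences occur in other genes, which makes its level uncertain. It had at most 8 counts in WT31 and at most 5 in RET. Cxcl9 had at most 2 counts in any library. RET and HCmel12 did not pass against each other for Cxcl10, while Cxcl11 was counted mostly in HCmel12, which is a description and not a test.

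**Figure D2:**
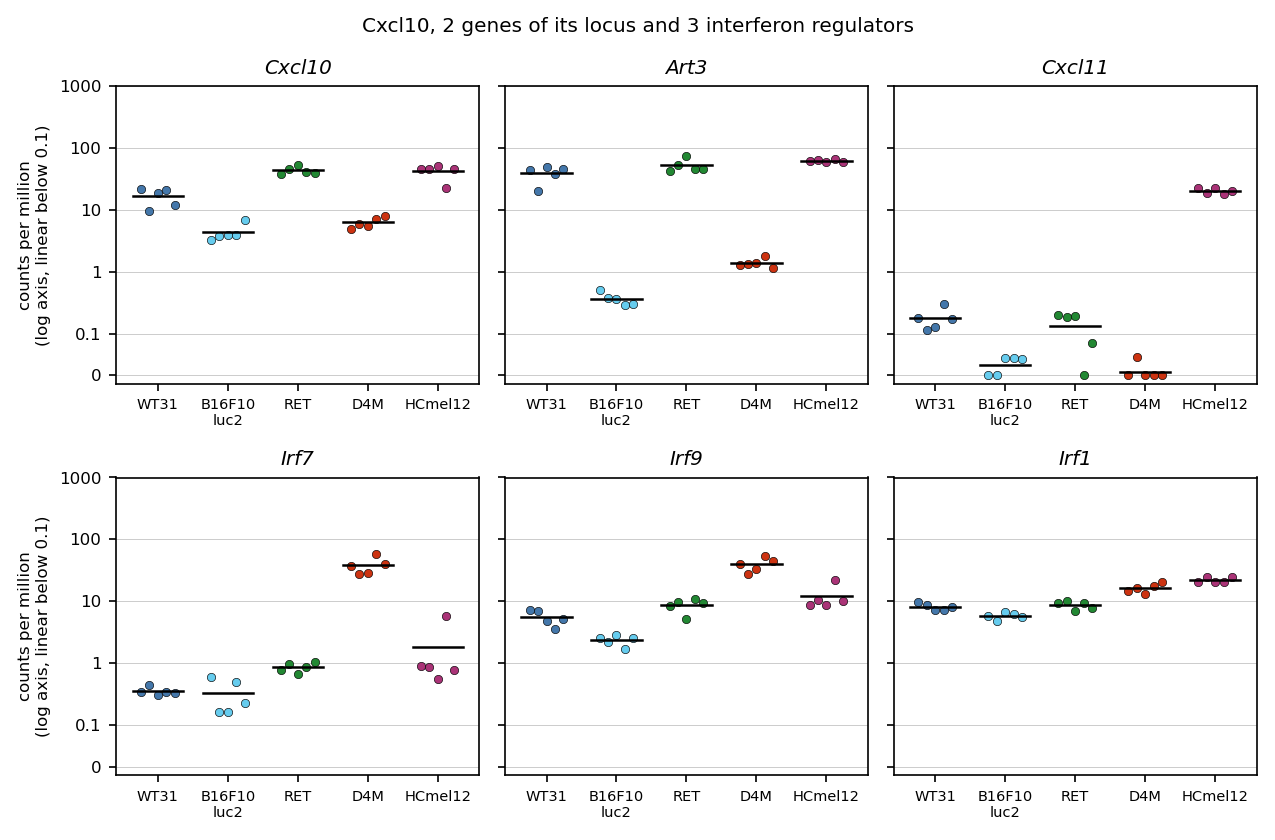
CPM (vertical axis, logarithmic above 0.1 and linear below) of Cxcl10, of Art3 and Cxcl11 from its locus and of Irf7, Irf9 and Irf1 in 25 libraries, with 1 point per library and a bar at the mean of 5. D4M lies highest for Irf7 and Irf9 and low for Cxcl10, and HCmel12 replicate 4 lies below its line for Cxcl10 and above it for Irf7 and Irf9.

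Of 14 interferon regulators, 13 were tested, and 6 of them (Irf7, Irf9, Stat2, Ifngr1, Ddx58 and Ifih1) were higher in D4M than in each of the other lines, beside the 20% of all genes given above. Irf7, a transcription factor that amplifies the interferon response, was at 38.4 ± 12.2 CPM in D4M and at most 1.82 CPM on average elsewhere. The RNA sensors Ddx58 and Ifih1 reached 85.8 and 33.4 CPM in D4M. Ifih1 was at 0.0609 CPM in WT31. The level of Irf1 was instead highest in HCmel12, at 22.4 CPM, with D4M below it (log2 difference of D4M minus HCmel12 -0.44, adjusted p = 0.000603). Tmem173 (STING), Ifnar2 and Irf3 had the highest mean TPM of the list, and Ifnb1 had at most 1 count in any library. In HCmel12 replicate 4, Irf7 was at 5.94 CPM against 0.568 to 0.923 CPM in the other libraries of the line, and Irf9 was at 22.1 CPM against 8.67 to 10.7 CPM.

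Cxcl1, Cxcl2 and Cxcl5 attract neutrophils through Cxcr2. Cxcl1 (ENSMUSG00000029380.11, chr5:90891241-90893115, + strand) had 11, 11, 11, 8 and 13 counts in D4M, 2, 0, 9, 4 and 10 in RET, 2, 5, 2, 4 and 1 in WT31, 1, 0, 1, 4 and 3 in HCmel12 and 1 count in total in B16F10 luc2. Cxcl5 (ENSMUSG00000029371.7, chr5:90759360-90761624, + strand) had 7, 5, 7, 11 and 8 counts in D4M and 1, 7, 1, 1 and 1 in WT31, at most 2 in HCmel12 and 0 in RET and B16F10 luc2. Both were thus most often counted in D4M, at mean TPM of 0.765 and 0.316, but overlapped with RET or WT31.

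Cxcl2 (ENSMUSG00000058427.10, chr5:90903871-90905938, + strand) had at most 3 counts in any library, in HCmel12 replicate 4, and none in RET, WT31 and B16F10 luc2. Cxcl2 did not pass the filter and so was not tested in this fit. A further gene of this cluster, Cxcl15, had 922 to 2225 counts in WT31 (52.8 ± 18.9 CPM, SD, n = 5) and at most 2 in any other library, which is at least 383-fold above D4M. Pf4, which is known from platelets, reached 45 counts in WT31 and at most 1 elsewhere, and Cxcl3 and Ppbp had at most 3. Cxcl1 and Cxcl5 were thus near the floor in the line with the highest Cxcl15.

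Cxcl16 is a transmembrane chemokine that attracts cells with Cxcr6. Cxcl16 (ENSMUSG00000018920.11, chr11:70453983-70459984, - strand) had 1 to 13 counts in all 25 libraries, with 6, 6, 13, 8 and 3.5 counts in D4M, and the lines overlapped. Of its 31-base sequences, 18.5% occur also in Zmynd15, which overlaps it on the other strand and had at most 3 counts.

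The 10 comparisons between lines gave the following counts among the 6 tested members, and comparisons share lines and are not independent. Against D4M, WT31 had 5 members lower and 1 higher (76.1% of all tested genes were called in this comparison), RET had 5 lower and 1 higher (77.1%), and B16F10 luc2 had 5 lower and none higher (77.7%). The member that was higher in WT31 and RET was Cxcl10. HCmel12 against D4M had the same split, with 5 members higher in D4M and 1 lower (72.5%). Against HCmel12, WT31 had 1 member lower (70.4%), which was Cxcl10. B16F10 luc2 had Ccl5 higher and both Cxcl10 and Cx3cl1 lower than HCmel12 (69.1%). RET had 3 members higher than HCmel12, Ccl2, Ccl5 and Cx3cl1 (67.2%), of which Ccl2 differed only below the floor.

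Within HIM melanoma, 4 members were lower in WT31 than in RET (73.2%), including Ccl2, which differed only below the floor. In B16F10 luc2, 3 members were lower than in RET (51.5%). The latter count was 5, of 7 members tested, without B16F10 luc2 replicate 3, WT31 replicate 3 or RET replicate 4. WT31 against B16F10 luc2 had Cxcl10 higher and Ccl5 lower (72.8%). No member was called with 1 sign in all 6 comparisons of a HIM with an LM line by limma, edgeR or DESeq2. The count was also 0 at an unadjusted p under 0.05 in limma. Beside this, 12.9% of all tested genes were so called by limma, 6.4% lower in HIM melanoma. Ccl2, Ccl7 and Cxcl12 had at most 2 counts in any library outside D4M. Their part of this count was thus largely fixed in advance, and the count is a description. Without a filter 1 member, Cxcl2, was called in all 6, on at most 3 counts per library.

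**Figure D3:**
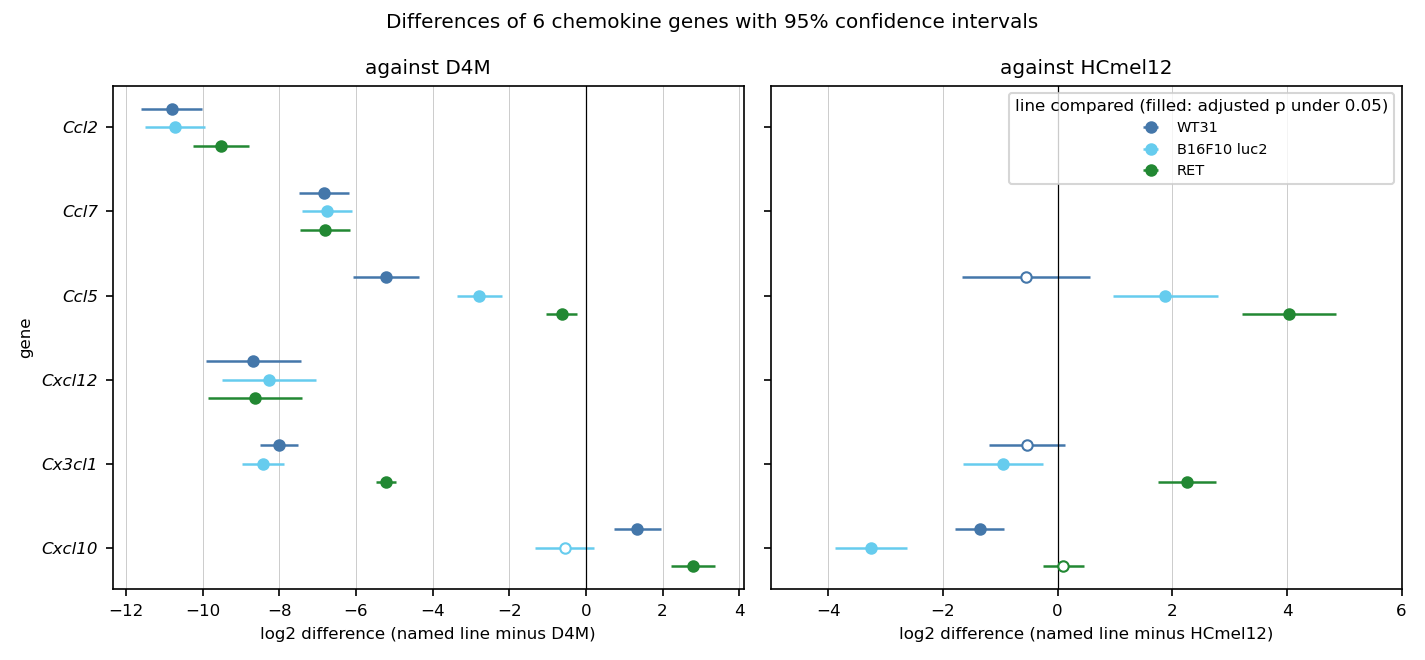
Log2 difference (horizontal axis) of WT31, B16F10 luc2 and RET minus D4M (left) and minus HCmel12 (right) for 6 chemokine genes, with 95% confidence intervals from limma and filled points for an adjusted p under 0.05. Pairs with at most 3 counts in every library of both lines are left out, and fitted values against lines with no counts depend on the prior count. Ccl2, Ccl7, Ccl5, Cxcl12 and Cx3cl1 lie left of 0 against D4M in all 3 lines, and against HCmel12 Ccl5 and Cx3cl1 lie on both sides of 0.

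Among all 38 chemokine genes of the tables that were listed, the summed level was 256 ± 21.2 TPM in D4M (SD, n = 4), 122 ± 10.6 in RET, 101 ± 15.8 in HCmel12, 98.2 ± 9.65 in WT31 and 34.5 ± 5.74 in B16F10 luc2 (SD, n = 5). The 10 members made up 243 TPM of this sum in D4M, 95.1 in RET, 66.8 in HCmel12, 30.2 in WT31 and 12.9 in B16F10 luc2. The gene that led the sum differed between lines. Cx3cl1 and Ccl2 held 39.2% and 35.1% of it in D4M, Cxcl10 held 55.9% in RET and 63.7% in HCmel12, Cxcl15 held 42.8% in WT31, and Ccl25, which guides thymocytes and gut lymphocytes, held 42.5% in B16F10 luc2. Ccl25 itself lay between 9.31 and 18.3 TPM in the 5 lines.

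**Figure D4:**
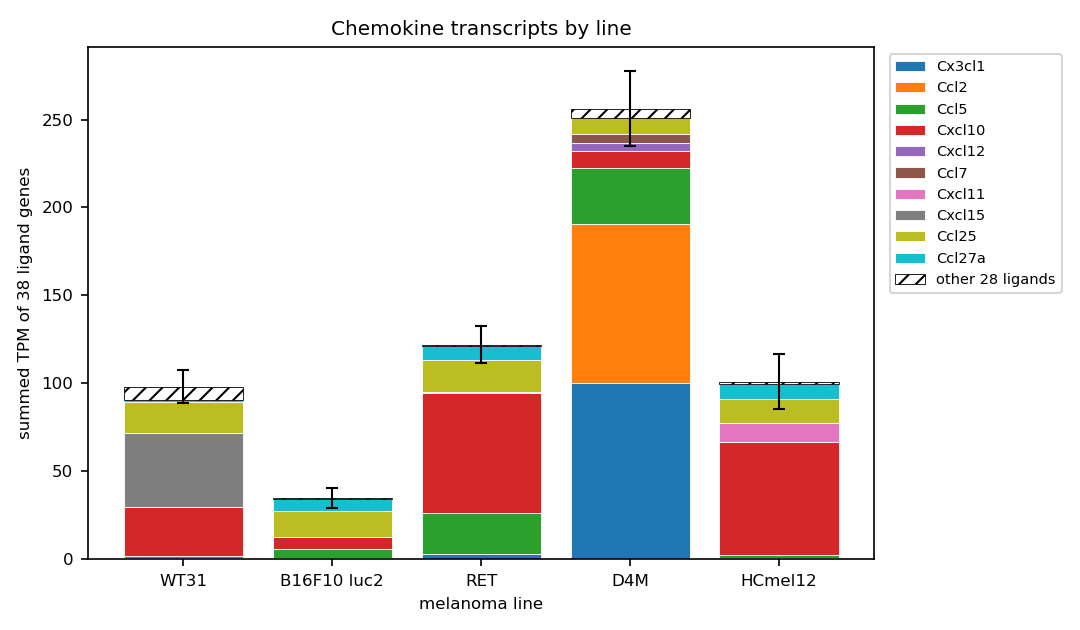
Summed TPM of 38 chemokine ligand genes (vertical axis) in each line, with stacked parts for 10 named genes and the other 28 together, as means of 5 libraries (4 in D4M), and error bars for the SD of the sum. D4M is highest at 256 TPM, mostly Cx3cl1 and Ccl2, and B16F10 luc2 lowest at 34.5 TPM.

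Receptors for the members were counted in the same cells. Of 22 chemokine receptor genes 6 were tested, and Ccr1, Cxcr4 and Ackr3 were higher in D4M than in each other line, beside 20% of all tested genes. Cxcr4 was at 28.7 ± 7.14 CPM in D4M and 5.99 ± 0.717 CPM in WT31 (SD, n = 5) while RET had none and B16F10 luc2 and HCmel12 had no more than 1 count per library, so that D4M held both Cxcl12 and its receptor. Ackr3 was at 19.3 CPM in D4M, 2.29 in RET, 1.38 in B16F10 luc2, 0.242 in HCmel12 and 0.0762 in WT31. Ccr1 was at 1.45 CPM in D4M and had no count elsewhere, so it passed the filter only through D4M.

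Cxcr3 was at 2.96 CPM in D4M and 2.37 CPM in WT31 (log2 difference of WT31 minus D4M -0.14, adjusted p = 0.712), and at 0.452 to 0.773 CPM in the other lines. Ccr2 had at most 4 counts and Cx3cr1 at most 2 in any library. Cxcr2 reached 14 and Cxcr6 22 counts in D4M and at most 2 elsewhere. Ackr4, which scavenges Ccl25, was at 10.0 CPM in WT31 and 0.0403 to 0.0649 CPM elsewhere.

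Adam10 and Adam17 cleave Cx3cl1 and Cxcl16 from the cell surface. The level of Adam10 was 385 ± 17 CPM in D4M, 293 in HCmel12, 286 in WT31, 139 in RET and 129 in B16F10 luc2. Adam17 lay between 64.5 CPM in HCmel12 and 111 CPM in D4M. Both were higher in D4M than in each other line, by 1.32-fold to 2.99-fold for Adam10 and 1.26-fold to 1.71-fold for Adam17 (limma, adjusted p of at most 9.52e-05).

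Of 21 NF-κB and inflammatory regulators, 17 were tested, and 8 were higher in D4M than in each other line (Nfkb2, Nfkbiz, Tnfaip3, Il1r1, Tlr2, Myd88, Zfp36 and Zc3h12a), beside 20% of all tested genes. Of these, Il1r1 and Tlr2 passed the filter only through D4M and had to differ there. Il1r1, the receptor of interleukin 1, was at 42.5 ± 7.79 CPM in D4M and at most 0.274 CPM on average elsewhere. Rela, which encodes the p65 subunit, was at 101 CPM in D4M and 94.8 CPM in WT31 and did not pass between them (log2 difference of WT31 minus D4M -0.09, adjusted p = 0.206). Nfkbib, an inhibitor of NF-κB, was instead lower in D4M, at 22.6 CPM, than in each other line (31.4 to 49.1 CPM; limma, adjusted p of at most 1.31e-05). Tnfrsf1a, a receptor of tumour necrosis factor, was at 136 CPM in D4M and 126 CPM in HCmel12 (log2 difference of D4M minus HCmel12 0.11, adjusted p = 0.177) and at 66.3 to 94.9 CPM in the other lines. Bcl3 was at 2.57 CPM in HCmel12, 2.08 in D4M, 1.73 in B16F10 luc2, 0.521 in RET and 0.0150 in WT31. The cytokine genes Tnf, Il1a and Il1b had at most 3 counts in any library and Il6 at most 8.

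The genes whose line means were most like those of a member were found by the root mean square (RMS) distance of centred log2 CPM over the 5 lines. Ccl2 was nearest to Ifi207 (RMS 0.16) and then to ENSMUSG00000118607.1 (0.20). Ccl7 was nearest to Pbp2 (0.03) and Lect2 (0.07), and Cxcl12 to Krt13 (0.04) and Chn1os1 (0.12), all genes with counts almost only in D4M. Cx3cl1 was nearest to Ifi203 (0.37) and Slfn8 (0.45), which had their next highest level in RET too. Ccl5 was nearest to Acsbg1 (0.30) and Gm9797 (0.56), and Cxcl10 to Bid (0.47) and Fgf11 (0.51). Gm9797 ranged from 0 to 50.0 counts over the D4M libraries. Fgf11 had 118 counts in HCmel12 replicate 4, where Cxcl10 was lowest in its line, and 15 to 28 counts in the rest of HCmel12.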

How the data were processed

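RNA-seq of 25 libraries was analysed. Per the submitters' notes, the authors trimmed reads with Trim Galore 0.6.4 and assigned them to GRCm38.p6 with kallisto (0.4.6 in the notes). They deposited estimated counts per gene without normalization, and TPM scaled by transcript length to 1000000. In each library, 24.5% to 26.6% of all genes, with those at 0 included, had an estimated count that was not whole. The annotation release is not given in the sources used here. For TPM, D4M replicate 1 is not used here, leaving 24 libraries.

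The deposited estimated counts, not rounded, were filtered with filterByExpr (edgeR 4.0.16), scaled with TMM and fitted with voom and limma 3.58.1 (R 4.3.3), with 1 mean per line over all 25 libraries. Genes were called at an adjusted p of 0.05 without a limit on the fold. Where a line never exceeded 3 counts, the fold is a lower bound, set against 3 counts in its smallest library. The procedure was tested on simulated data in which a small share of genes, all well counted, was changed in 1 line. That simulation did not cover genes counted in only 1 line, or comparisons in which most genes differ. Alternatives were edgeR, DESeq2 1.42.0 on rounded counts, other scalings and filters, TPM with pseudocounts of 1 and 0.1, only the 2 lines compared, a replicate block, a log2 limit of 1 and leaving out each library. Leaving out D4M replicate 1 with HCmel12 replicate 4 was chosen after seeing the data. Gene positions and the share of 31-base sequences found in other genes are from GENCODE, overlap counts from the same annotation.

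The members and gene lists were chosen with earlier results of these data known. Named genes were all members, of each list the 3 with the highest mean TPM and the 3 with the widest range among those tested, receptors and proteases of the members, genes of the Ccl2 and Cxcl1 clusters and the 2 nearest profiles. Other genes named were chosen after their values were seen. Some genes are not reported here, and they are left out of the list counts.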

Additional observations from a re-analysis of the deposited data

Results flagged for a closer look

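Each member was checked for a library far from the other 4 of its line by Dixon's ratio with a limit of 0.71. Of 29 groups above the floor 3 exceeded it, and chance gives about 1 in 20. Cxcl5 in WT31 replicate 2 was at 0.266 CPM, which is 7 counts against 1 in the others. Cxcl10 in B16F10 luc2 replicate 5 was at 6.81 CPM, the highest of its line, and Ccl5 was also highest in that library at 60 counts. Cxcl10 in HCmel12 replicate 4 was at 22.5 CPM against 45.4 to 50.8 CPM in the other 4 libraries. Without that library the log2 difference of RET minus HCmel12 was -0.11 in place of 0.10, and it was not called either way.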

How the results depend on the processing

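Of 42 differences of tested members between lines, 38 kept their side of the threshold under all 37 alternatives that gave a value, 2 lost and 2 gained a call under at least 1, and none changed sign with a call. The sign of 1 difference without a call, Cxcl10 in RET against HCmel12, changed where HCmel12 replicate 4 was left out. Counts moved mostly with the filter. With no filter on low counts all 10 members were fitted and 10 were called in WT31 against D4M, 9 in B16F10 luc2 against D4M, 10 in RET against D4M, 2 in WT31 against HCmel12, 5 in RET against HCmel12, 4 in WT31 against B16F10 luc2 and 1 in all 6 comparisons. With at least 10 counts in every library only 2 members were left, and the calls were 2 in WT31 against D4M, 1 in B16F10 luc2 against D4M, 2 in RET against D4M, 1 in RET against HCmel12, 1 in WT31 against B16F10 luc2, 2 in WT31 against RET and 2 in D4M against HCmel12. WT31 against HCmel12 had 2 calls in place of 1 in edgeR, in DESeq2 and with the replicate block. The replicate numbers did not pair the libraries, since deviations of libraries with the same number had a mean correlation of -0.0035 and 3 of 25 libraries were closest to their own number. The block changed no other call. Leaving out 1 library gave 6 to 7 calls in WT31 against D4M, 5 to 6 in B16F10 luc2 against D4M, 6 to 7 in RET against D4M and in D4M against HCmel12, 1 in WT31 against HCmel12, 3 to 4 in B16F10 luc2 against HCmel12 and in RET against HCmel12, 2 to 3 in WT31 against B16F10 luc2, 3 to 4 in WT31 against RET, 3 to 5 in B16F10 luc2 against RET and 0 in all 6. The 5 calls came without B16F10 luc2 replicate 3, WT31 replicate 3 or RET replicate 4. With a library left out up to 7 members passed the filter. Depth limits Cxcl1, Cxcl2, Cxcl5 and Cxcl16, whose counts were at or near the floor.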

Other observations

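Some chemokine genes outside the list separated the lines as well. Cxcl14, a ligand made in skin, was at 2.64 CPM in WT31 and 2.13 CPM in D4M (log2 difference 0.07, adjusted p = 0.841 by limma) and had no count in B16F10 luc2, RET or HCmel12. Ccl27a, which attracts T cells to skin, was at 1.81 to 2.58 CPM in B16F10 luc2, RET and HCmel12, 0.358 CPM in WT31 and 0.0263 CPM in D4M, although 57.0% of its 31-base sequences occur in other genes. Ccl28 was at 1.09 CPM in HCmel12 and 0.0258 CPM in RET.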
